A study of Homo sapiens with 6 samples.

Results

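The BCL2 family decides at the outer mitochondrial membrane whether a stressed cell commits to apoptosis. The 10 genes described here are family members that are not counted among the classic direct targets of p53. They are not all such members, and others, such as BCL2, come further below. They were taken by gene symbol, and all 10 were found among the 16910 genes of the deposited table. In this family, the BH3-only proteins sense stress, and the effectors BAK1 and BAX permeabilise the mitochondrial membrane. The pro-survival proteins bind both and hold them in check. The set holds 5 BH3-only genes (HRK, BMF, BIK, BCL2L11 and BID), the effector BAK1, and 4 pro-survival genes (MCL1, BCL2L1, BCL2L2 and BCL2A1). BCL2L11 encodes BIM, BCL2L1 encodes BCL-XL and BCL2L2 encodes BCL-W. Ovarian tumour cells are known to lean on MCL1 and BCL-XL for survival, and these proteins are drug targets.

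The 6 RNA-seq libraries come from TOV21G, an established human line of ovarian clear cell carcinoma, and fall into 3 groups of 2. The siGYS1 libraries carry a knockdown of GYS1, the muscle-type glycogen synthase, and the sip53 libraries a knockdown of p53. The NC libraries, labelled wild type, are read here as the control siRNA, which the labels do not spell out. The siRNA sequences, the time after transfection and whether the replicates were separate cultures are not stated in the labels, so p-values measure only the spread between these libraries.

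GYS1 was at 2.33 and 2.15 TPM (transcript abundance per length, scaled to the same total in each library) in the siGYS1 libraries, 39.27 and 40.66 TPM in the sip53 libraries, and 37.64 and 33.42 TPM in the NC libraries. The siGYS1 libraries stood far below the other groups. Read counts summed to between 17425000 and 18097337 per library, of which mitochondrially encoded transcripts took 4.82% to 6.0%. In TPM, which sum to about 1000000 per library, these 13 transcripts took more. They summed to 200320 and 186003 with siGYS1, 158906 and 168012 with sip53, and 192159 and 184010 with NC. The TPM of all other genes make up the rest. Markers of the line were present: in all 6 libraries PAX8 was between 177.05 and 220.04 TPM and ANXA4 between 161.46 and 188.53 TPM. NAPSA, a common marker of clear cell tumours, did not exceed 0.57 TPM. The 8 leukocyte markers with values summed to between 9.46 and 10.3 TPM with siGYS1, 11.03 and 11.54 TPM with sip53, and 14.79 and 15.21 TPM with NC, most of it CORO1A. The library siGYS1 replicate 1 carried relatively more reads on long transcripts (Spearman rho of its deviation with length 0.54 across genes), and NC replicate 2 relatively fewer (-0.39), against values between -0.09 and 0.04 in the other 4.

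The feature that defines the family is the BH3 segment, a short helix with which pro-death proteins enter the groove of the pro-survival proteins. Its core is a leucine, 3 variable residues, a small residue (glycine or alanine) and an aspartate. A search of the principal coding sequences (GENCODE 29, GRCh38) for codons of this core found 1 match in each of 8 members and none in BCL2L2 and BCL2A1, whose segments differ from it in these letters. The 8 stretches are shown because both opposing classes carry them. Each has 30 bases of coding strand, 5′ to 3′, with the 18 bases of the core in capitals.
HRK, chr12:116881176-116881205, minus strand: gcccggCTCAAGGCGCTAGGCGACgagctg
BMF, chr15:40104201-40104230, minus strand: cgaaagCTTCAGTGCATTGCAGACcagttc
BIK, chr22:43127710-43127739, plus strand: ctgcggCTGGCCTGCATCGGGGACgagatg
BCL2L11, chr2:111150097-111150126, plus strand: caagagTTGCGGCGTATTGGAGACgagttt
BID, chr22:17739421-17739450, minus strand: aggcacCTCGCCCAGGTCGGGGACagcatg
BAK1, chr6:33575393-33575422, minus strand: cggcagCTCGCCATCATCGGGGACgacatc
MCL1, chr1:150578871-150578900, minus strand: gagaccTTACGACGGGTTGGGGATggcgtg
BCL2L1, chr20:31721928-31721957, minus strand: caagcgCTGAGGGAGGCAGGCGACgagttt
The counts are per gene, so splice forms with opposite roles, such as the long and short forms of MCL1 and BCL2L1, are not told apart.

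**Figure D1:**
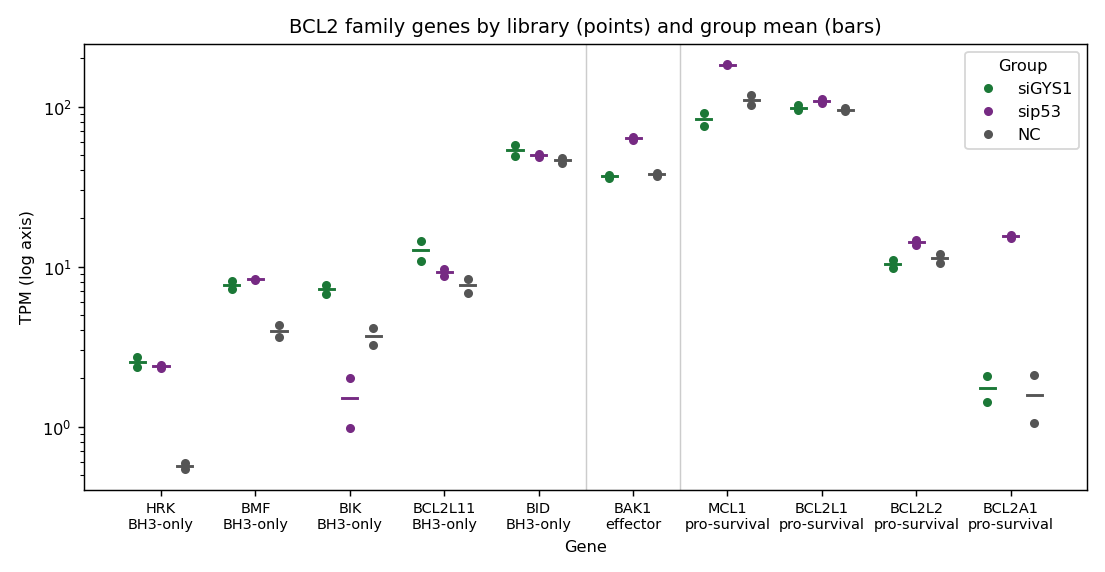
TPM of the 10 genes on a log axis, by gene and group (siGYS1 green, sip53 purple, NC grey). Points are libraries and bars are means of 2 libraries. HRK and BMF lie above NC in both knockdowns. MCL1 lies below NC with siGYS1 and above it with sip53, and BCL2A1 stands apart with sip53.

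With siGYS1, 4 of the 5 BH3-only genes rose against NC, none of the 4 pro-survival genes of the set rose, and MCL1 fell. With sip53, 3 BH3-only genes rose and BIK fell, while BAK1 and all 4 pro-survival genes rose. The threshold was an adjusted p of 0.05 (Benjamini-Hochberg over 13235 genes, edgeR's quasi-likelihood test), and all 10 members passed the filter on low counts. In the siGYS1 comparison 5 of the 10 members changed, 4 up and 1 down, against 19.7% of all tested genes, of which 10.4% of tested genes were higher and 9.24% lower. In the sip53 comparison 9 of 10 changed, 8 up and 1 down, against 49.9% of all tested genes, 23.4% higher and 26.5% lower. The members' median log2 fold change was 0.24 with siGYS1 and 0.59 with sip53, beside -0.01 and -0.03 over all tested genes. These class counts depend on the setting. With limma on log2 FPKM, 2 pro-survival genes passed as higher with sip53. With siGYS1, 3 BH3-only genes passed as higher with the DESeq2 Wald test and 5 with a replicate block. Both comparisons share the NC libraries. Fold changes below are log2 values from edgeR with their standard error (SE), and adjusted p-values are from the same test.

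HRK, a BH3-only protein first known from neurons, showed the largest change against NC of the BH3-only genes. Its level was 2.73 and 2.36 TPM in the siGYS1 libraries, 2.42 and 2.33 TPM in the sip53 libraries, and 0.59 and 0.54 TPM in the NC libraries. The knockdown libraries did not overlap NC, and they overlapped each other. HRK rose 4.45-fold with siGYS1 (log2 2.15, SE 0.15, adjusted p = 5.72e-05) and 4.41-fold with sip53 (log2 2.14, SE 0.15, adjusted p = 5.49e-06). Between the knockdowns its log2 difference, siGYS1 over sip53, was 0.01 (95% interval -0.27 to 0.30, adjusted p = 0.937). On log2(FPKM + 1) its fold is smaller by construction, since HRK is a rare transcript even after the rise.

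BMF, a BH3-only protein held on the motor complexes of the cytoskeleton until stress frees it, was at 8.14 and 7.2 TPM with siGYS1, 8.25 and 8.4 TPM with sip53, and 4.31 and 3.61 TPM with NC. It rose 1.90-fold with siGYS1 (log2 0.92, SE 0.10, adjusted p = 0.000443) and 2.03-fold with sip53 (log2 1.02, SE 0.10, adjusted p = 3.84e-05). Both groups of knockdown libraries lay above both NC libraries. The log2 difference between the knockdowns was -0.09 (95% interval -0.31 to 0.12, adjusted p = 0.458).

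BIK, a BH3-only protein of the endoplasmic reticulum, went opposite ways. It was at 6.72 and 7.66 TPM with siGYS1, 0.98 and 2.02 TPM with sip53, and 3.22 and 4.12 TPM with NC, and no group overlapped another. Against NC it rose with siGYS1 (log2 0.98, SE 0.28, adjusted p = 0.0391) and fell with sip53 (log2 -1.20, SE 0.37, adjusted p = 0.0214). The direct difference, siGYS1 over sip53, was 4.52-fold (log2 2.18, SE 0.33, adjusted p = 0.000631). BIK rests on few reads, 57 and 72 with siGYS1, 9 and 19 with sip53, and 29 and 40 with NC. The rise with siGYS1 misses the threshold in 6 of 15 alternative settings, including 3 that drop a library: siGYS1 replicate 2 (log2 0.84, adjusted p = 0.0666), NC replicate 1 (0.76, adjusted p = 0.173) and NC replicate 2 (1.22, adjusted p = 0.0844). The fall with sip53 misses it in 3, without sip53 replicate 1 (-0.77, adjusted p = 0.164), without NC replicate 2 (-0.95, adjusted p = 0.125) and with the DESeq2 Wald test (-1.18, adjusted p = 0.0521), while the direct difference passed in all 15.

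BCL2L11, whose product BIM binds every pro-survival member, was at 14.49 and 10.88 TPM with siGYS1, 9.66 and 8.77 TPM with sip53, and 8.36 and 6.88 TPM with NC. The siGYS1 libraries lay highest and spread the most. It rose 1.64-fold with siGYS1 (log2 0.72, SE 0.13, adjusted p = 0.00551), a call kept in all 15 alternatives. With sip53 it was just past the threshold (log2 0.36, SE 0.13, adjusted p = 0.0456), and 7 of 15 alternatives end that call, including the drop of either sip53 library (adjusted p = 0.191 for replicate 1 and 0.131 for replicate 2) and of NC replicate 2 (log2 0.23, adjusted p = 0.279). The difference between the knockdowns (0.36, adjusted p = 0.0472) is lost in 8, among them without siGYS1 replicate 1 (0.19, adjusted p = 0.229).

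BID, which caspase-8 cleaves to link death receptors to mitochondria, was the most abundant BH3-only transcript. It was at 49.16 and 57.19 TPM with siGYS1, 48.65 and 50.85 TPM with sip53, and 44.66 and 47.42 TPM with NC. Its log2 fold change was 0.34 with siGYS1 (SE 0.11, 95% interval 0.09 to 0.60, adjusted p = 0.0629) and 0.15 with sip53 (SE 0.11, adjusted p = 0.307), and neither passed the test. The siGYS1 value passes without siGYS1 replicate 1 (0.48, adjusted p = 0.00549), with length-corrected offsets (0.37, adjusted p = 0.00745) and with a replicate block (0.34, adjusted p = 0.00495).

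BAK1, the effector that sits in the mitochondrial outer membrane, was at 35.86 and 37.27 TPM with siGYS1, 61.95 and 64.39 TPM with sip53, and 38.51 and 37.03 TPM with NC. The siGYS1 and NC libraries overlapped, and the sip53 libraries lay above all 4 of them. BAK1 rose 1.76-fold with sip53 (log2 0.82, SE 0.09, adjusted p = 8.51e-05). With siGYS1 its log2 fold change was -0.05 (95% interval -0.26 to 0.16, adjusted p = 0.744). The direct difference, siGYS1 over sip53, was -0.87 (SE 0.09, adjusted p = 7.79e-05).

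MCL1, a short-lived pro-survival protein and the most abundant member in NC cells, was at 91.24 and 76.12 TPM with siGYS1, 183.83 and 180.9 TPM with sip53, and 117.27 and 102.37 TPM with NC. The 3 groups did not overlap, with siGYS1 lowest and sip53 highest. MCL1 fell to 75.4% of NC with siGYS1 (log2 -0.41, SE 0.09, adjusted p = 0.0114) and rose 1.73-fold with sip53 (log2 0.79, SE 0.09, adjusted p = 7.12e-05). Directly, siGYS1 stood at 43.6% of sip53 (log2 -1.20, SE 0.09, adjusted p = 7.86e-06). The fall with siGYS1 misses the threshold in 1 of 15 alternatives, without NC replicate 1 (-0.37, adjusted p = 0.0664).

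BCL2L1, whose long form BCL-XL is the stable counterpart of MCL1, was at 101.71 and 94.93 TPM with siGYS1, 105.39 and 110.93 TPM with sip53, and 98.22 and 93.27 TPM with NC. The siGYS1 libraries overlapped NC (log2 0.04, SE 0.08, 95% interval -0.14 to 0.22, adjusted p = 0.785). It rose by a log2 fold change of 0.24 with sip53 (SE 0.08, adjusted p = 0.0311). That call is lost in 7 of 15 alternatives, which include leaving out any NC library (adjusted p = 0.151 and 0.114) or any sip53 library (0.111 and 0.204).

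BCL2L2 was at 11.02 and 9.79 TPM with siGYS1, 13.63 and 14.75 TPM with sip53, and 12.02 and 10.5 TPM with NC. It rose 1.31-fold with sip53 (log2 0.39, SE 0.09, adjusted p = 0.00575) and was at -0.22 with siGYS1 (SE 0.09, adjusted p = 0.134). With length-corrected offsets it passes as lower with siGYS1 (-0.37, adjusted p = 0.0107), and the rise with sip53 is lost with limma on log2 FPKM (adjusted p = 0.0663 with a pseudocount of 1 and 0.0631 with 0.1). BCL2L2 shares exons with the read-through gene BCL2L2-PABPN1, to which the table assigns 152.94 and 194.57 reads with siGYS1, 149.37 and 126.0 with sip53, and 177.27 and 144.9 with NC, so how reads were split between them is uncertain. With both summed, an alternative chosen after seeing the data, the log2 fold change is 0.27 with sip53 (adjusted p = 0.0352) and -0.10 with siGYS1 (adjusted p = 0.497).

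BCL2A1, an NF-kB-responsive pro-survival gene best known from blood cells, had the largest change of the set. It was at 2.06 and 1.43 TPM with siGYS1, 15.8 and 15.07 TPM with sip53, and 1.05 and 2.09 TPM with NC. Only the sip53 libraries stood apart. BCL2A1 rose 10.3-fold with sip53 (log2 3.36, SE 0.29, adjusted p = 1.76e-05), from counts of 108 and 106 reads with sip53 against 7 and 15 with NC. With siGYS1 the 13 and 10 reads gave a log2 fold change of 0.14 with a wide 95% interval (-0.82 to 1.10, adjusted p = 0.843). The direct difference, siGYS1 over sip53, was -3.22 (SE 0.29, adjusted p = 2.79e-05). Markers of other cell types moved in both directions in the same libraries. Of 2 leukocyte markers that could be tested with sip53, ITGAM rose (log2 0.71, SE 0.18, adjusted p = 0.00971) and CORO1A fell (-0.54, SE 0.14, adjusted p = 0.00977), and LCP1 was at 0.42 and 0.25 TPM with sip53 against 0.0 and 0.03 TPM with NC. Of 3 endothelial markers tested, PECAM1 (2.05, SE 0.42, adjusted p = 0.00261) and CDH5 (1.51, SE 0.36, adjusted p = 0.00607) rose and none fell, and the 5 with values summed to 2.5 and 1.71 TPM with sip53 against 1.14 and 0.86 TPM with NC. Of 4 fibroblast markers tested, 3 fell and DCN rose (4.23, SE 0.40, adjusted p = 2.89e-05), with 70 and 57 reads with sip53 against 3 and 4 with NC. The deposited DCN TPM, 5.78 and 4.05 with sip53 and 0.41 and 8.55 with NC, do not separate the groups. The 9 fibroblast markers summed to 119.88 and 120.89 TPM with sip53 against 234.29 and 217.72 TPM with NC. The part of these markers in the BCL2A1 result was not tested.

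**Figure D2:**
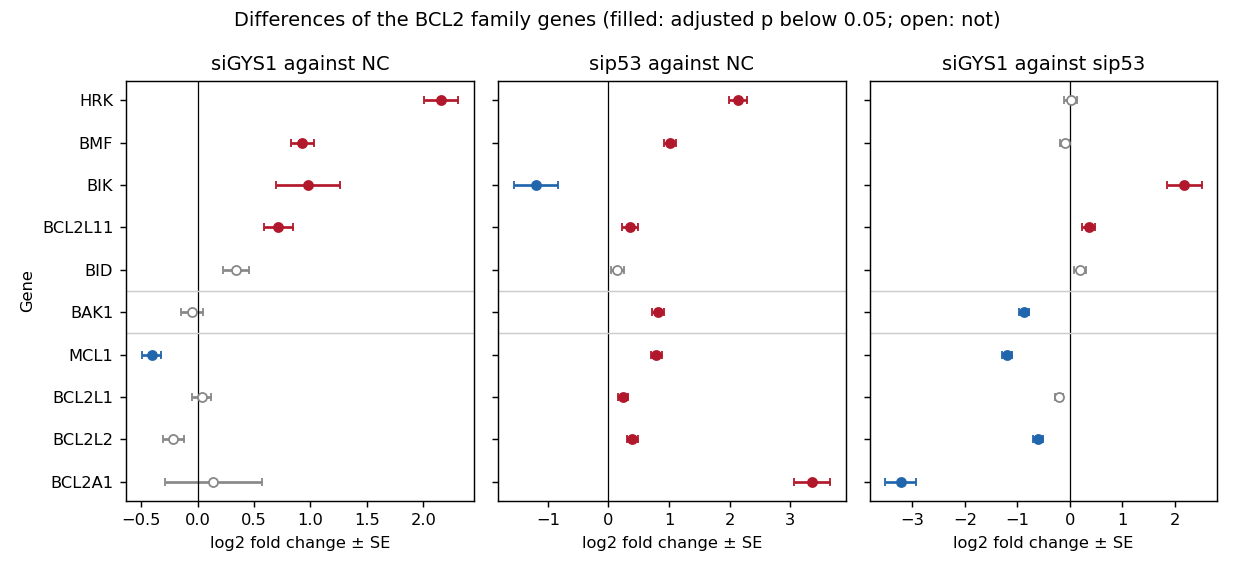
Log2 fold change with its SE for the 10 genes (rows) in the 3 comparisons, from edgeR. Filled red and blue points passed an adjusted p of 0.05 as higher and lower, and open grey points did not. MCL1 and BIK pass with opposite signs in the first and second panels. BAK1 and BCL2L2 also change sign there but do not pass in the first. BCL2A1 reaches 3.36 with sip53.

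Set directly against each other, the knockdowns differed in 6 of the 10 members, against 43.4% of all tested genes. BIK and BCL2L11 were higher with siGYS1 (22.5% of tested genes were), and BAK1, MCL1, BCL2L2 and BCL2A1 were lower (20.9% were). In the pro-survival class 3 of 4 members were lower with siGYS1 than with sip53, and BCL2L1 was at -0.21 (SE 0.08, adjusted p = 0.0634), which passes with a replicate block (adjusted p = 0.0211) and with length-corrected offsets (adjusted p = 0.0362). In the BH3-only class 2 of 5 were higher with siGYS1 and none was lower.

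MCL1 and BCL2L1, the most abundant pro-survival transcripts, changed places. MCL1 over BCL2L1 in TPM was 0.90 and 0.80 in the siGYS1 libraries, 1.74 and 1.63 in the sip53 libraries, and 1.19 and 1.10 in the NC libraries. BCL2L1 was thus the top transcript of the set in both siGYS1 libraries, and MCL1 in the other 4. MCL1 made up 43.0% ± 1.8 of the summed pro-survival TPM with siGYS1, 57.0% ± 1.0 with sip53 and 50.2% ± 1.5 with NC (SD, n = 2 each). The share of BCL2A1 was 0.89% ± 0.15 with siGYS1, 4.82% ± 0.19 with sip53 and 0.73% ± 0.39 with NC.

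Summed over classes, the pro-death transcripts (BH3-only and BAK1) came to 119.8 ± 3.9 TPM with siGYS1, 134.3 ± 3.4 TPM with sip53 and 99.6 ± 0.04 TPM with NC. The pro-survival transcripts came to 194.2 ± 16.8 TPM with siGYS1, 320.2 ± 2.1 TPM with sip53 and 218.4 ± 14.4 TPM with NC. The ratio of pro-death to pro-survival TPM was 0.57 and 0.67 in the siGYS1 libraries, 0.41 and 0.43 in the sip53 libraries, and 0.44 and 0.48 in the NC libraries. Within the set, the siGYS1 libraries lay above NC and the sip53 libraries just below it. The set thus shifted towards pro-death transcripts with siGYS1, while with sip53 both its classes were higher and their ratio moved little. These sums are descriptions with no test, and they are carried by BID, BAK1, MCL1 and BCL2L1. Without MCL1 the ratio was 1.09 ± 0.10 with siGYS1, 0.98 ± 0.005 with sip53 and 0.92 ± 0.03 with NC, which puts sip53 above NC. The 4 BH3-only genes other than BID summed to 32.08 and 28.1 TPM with siGYS1, 21.31 and 21.52 TPM with sip53, and 16.48 and 15.15 TPM with NC. All these sums leave out family genes outside the set, among them the effector BAX. BAX was at 170.85 and 184.77 TPM with siGYS1, 105.08 and 120.32 TPM with sip53, and 167.17 and 173.06 TPM with NC. Against NC, BAX had a log2 fold change of 0.07 with siGYS1 (SE 0.11, adjusted p = 0.695) and -0.41 with sip53 (SE 0.11, adjusted p = 0.0131). Of the genes left out, pro-survival BCL2 and BCL2L10 and pro-death PMAIP1 and BBC3 rose with siGYS1, as given further below. A ratio over the wider family was not computed. In RNA from whole cultures, fewer cells expressing a gene and less RNA per cell cannot be told apart.

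**Figure D3:**
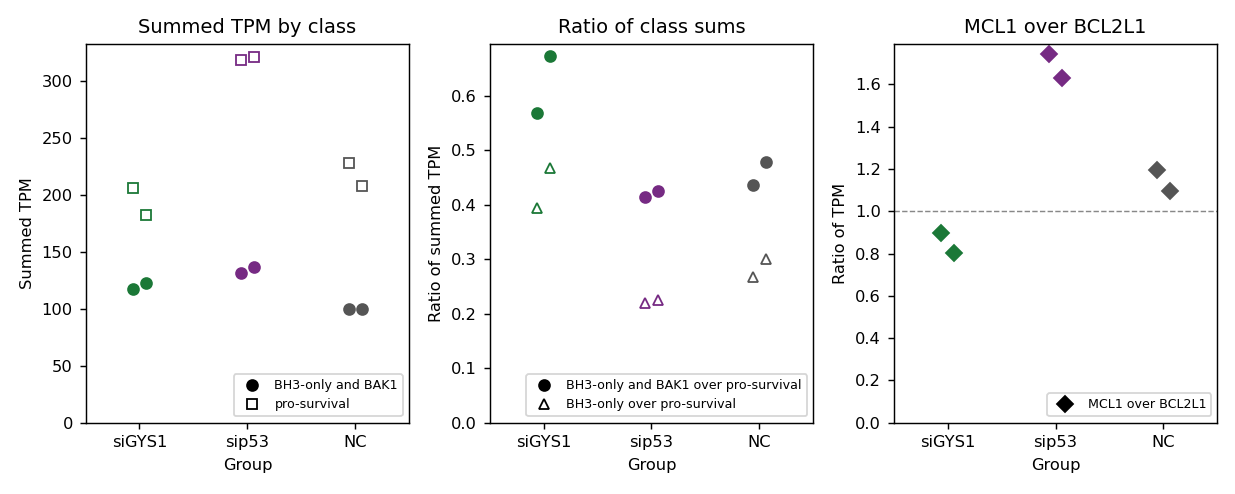
Summed TPM of the pro-death (filled circles) and pro-survival (open squares) genes, by group. The middle panel gives the pro-death to pro-survival ratio (filled circles) and the BH3-only to pro-survival ratio (open triangles). The last panel gives MCL1 over BCL2L1. Each library has 1 point per measure, and all vertical axes start at 0. The siGYS1 libraries have the highest pro-death to pro-survival ratio (0.57 and 0.67), and they alone lie under the dashed line at 1 for MCL1 over BCL2L1.

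The order of levels within the set, by TPM, had MCL1 and BCL2L1 on top and BID and BAK1 next in all 3 groups. With siGYS1 it ran BCL2L1, MCL1, BID, BAK1, BCL2L11, BCL2L2, BMF, BIK, HRK and BCL2A1, and the neighbours BCL2L11 and BCL2L2, and BMF and BIK, overlapped. With sip53 it ran MCL1, BCL2L1, BAK1, BID, BCL2A1, BCL2L2, BCL2L11, BMF, HRK and BIK, and no neighbours overlapped. With NC it ran MCL1, BCL2L1, BID, BAK1, BCL2L2, BCL2L11, BMF, BIK, BCL2A1 and HRK, and only BMF and BIK overlapped. BCL2A1 stood above BCL2L2, BCL2L11 and BMF with sip53 and below them with siGYS1 and NC, and BIK took the last place with sip53.

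Among 11 other BCL2 family genes, 9 could be tested, and 4 rose and 0 fell with siGYS1, while 3 rose and 2 fell with sip53. For this and the lists that follow, the shares over all tested genes were 10.4% higher and 9.24% lower with siGYS1, and 23.4% higher and 26.5% lower with sip53. The 5 of 9 changed with sip53 are near the 49.9% of all tested genes. PMAIP1, which encodes NOXA, the BH3-only partner of MCL1, rose with siGYS1 (log2 0.58, SE 0.10, adjusted p = 0.00539) and with sip53 (1.08, SE 0.10, adjusted p = 3.16e-05). BBC3, which encodes PUMA, rose with siGYS1 (0.55, SE 0.16, adjusted p = 0.0376) and fell with sip53 (-0.68, SE 0.17, adjusted p = 0.00847). The call of the rise was lost in 7 of 15 alternatives, among them without either NC library or siGYS1 replicate 2. The call of the fall was lost without sip53 replicate 2. BCL2, the founding pro-survival gene, rose with siGYS1 (0.83, SE 0.12, adjusted p = 0.00153), to 10.82 and 8.68 TPM against 6.08 and 4.93 TPM with NC. BCL2L10 rose with sip53 (3.10, SE 0.27, adjusted p = 1.88e-05) and was at the threshold with siGYS1 (1.10, SE 0.34, adjusted p = 0.0494), where 8 of 15 alternatives end the call, among them leaving out any library other than siGYS1 replicate 2.

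Downstream, 7 of 16 genes of the caspase cascade and its inhibitors rose and 0 fell with siGYS1 (list median 0.29), against 10.4% and 9.24% of all tested genes. With sip53 5 rose and 6 fell (median -0.01), against 23.4% and 26.5%. The inhibitor of apoptosis genes BIRC3 (0.80, SE 0.13, adjusted p = 0.00272) and BIRC2 (0.49, SE 0.09, adjusted p = 0.00567) rose with siGYS1. BIRC2 misses the threshold without NC replicate 2. APAF1, the scaffold of the apoptosome, rose too (0.55, SE 0.14, adjusted p = 0.0216), but not in 7 of 15 alternatives, such as without siGYS1 replicate 1, NC replicate 2 or either sip53 library. With sip53, BIRC2 (0.72, SE 0.09, adjusted p = 0.00016) and BIRC3 (0.57, SE 0.13, adjusted p = 0.00399) also rose. BIRC5, an inhibitor of apoptosis protein of dividing cells (-0.88, SE 0.12, adjusted p = 0.000215), and CASP10 (-0.74, SE 0.12, adjusted p = 0.000606) fell.

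Of 10 mitochondrial partners of BCL2 proteins, 1 rose and 0 fell with siGYS1, and 2 rose and 3 fell with sip53. The count with siGYS1 is below the 19.7% of all tested genes that changed, and that with sip53 is near the 49.9%. MTCH2, the mitochondrial receptor of cleaved BID, was at 28.5 and 25.98 TPM with sip53 against 110.08 and 114.39 TPM with NC, and fell by 1.80 on the log2 scale (SE 0.11, adjusted p = 1.82e-06). With siGYS1 it was at 114.1 and 117.92 TPM (log2 0.05, adjusted p = 0.781). VDAC1 rose with siGYS1 (0.46, SE 0.09, adjusted p = 0.00604) and with sip53 (0.82, SE 0.09, adjusted p = 5.1e-05), and VDAC2, a channel that anchors BAK1, rose with sip53 (0.50, SE 0.09, adjusted p = 0.00151).

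Of 11 tested genes whose products handle MCL1, BIM or BMF protein, 1 rose and 1 fell with siGYS1, and 1 rose and 2 fell with sip53. These counts are near the 19.7% of all tested genes with siGYS1 and below the 49.9% with sip53. FBXW7, the substrate receptor of a ubiquitin ligase of MCL1, rose with siGYS1 (0.65, SE 0.10, adjusted p = 0.00325). DYNLL2, the dynein light chain that holds BMF, fell with siGYS1 (-0.63, SE 0.09, adjusted p = 0.00153). With sip53 neither passed (-0.11, adjusted p = 0.423, and -0.08, adjusted p = 0.458), while FBXO4 (-1.77, SE 0.16, adjusted p = 2.09e-05) and AURKA (-0.55, SE 0.10, adjusted p = 0.00167) fell. PPP2CA rose with sip53 (0.28, SE 0.08, adjusted p = 0.0157), a call lost in 7 of 15 alternatives, among them leaving out any NC or sip53 library.

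Of 18 transcription factors reported to act on these genes, 4 rose and 1 fell with siGYS1, and 9 rose and 4 fell with sip53. The shares over all tested genes were 19.7% changed with siGYS1, and 23.4% higher and 26.5% lower with sip53. ATF3 rose in both comparisons (1.10, SE 0.21, adjusted p = 0.00761 with siGYS1, and 1.61, SE 0.21, adjusted p = 0.000173 with sip53). FOS fell in both (-0.63, SE 0.15, adjusted p = 0.0185, and -1.38, SE 0.16, adjusted p = 9.94e-05), the first of these not without siGYS1 replicate 1 or either NC library. JUN rose with sip53 (1.09, SE 0.09, adjusted p = 1.19e-05). CREB1 rose with siGYS1 (0.44, SE 0.12, adjusted p = 0.0338), but in only 6 of 15 alternatives, and not without siGYS1 replicate 1, NC replicate 2 or either sip53 library.

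The 250 bases before the start of 7 members, all but BIK, MCL1 and BCL2L2 (RefSeq, GRCh38.p14), were searched on both strands for 6 motifs. The word TGATGNAA, a composite element of ATF and C/EBP factors, stood in HRK and BCL2A1, and in 3.14% of 35116 promoters. GTAAACA, a forkhead word, stood in BCL2L11 (2.98% of promoters), a p53 half-site in BAK1 (5.57%) and CACGTG in BID (6.3%). TGANTCA (6.57% of promoters) and TGACGTCA (1.65%) stood in none of the 7. The 3 stretches below have the word in capitals, and each is a match of letters, not a shown site.
HRK, chr12:116881499-116881526, minus strand: gggggccggaTGATGTAAcccccctccc
BCL2A1, chr15:79971242-79971269, minus strand: tattataaagTGATGCAAacagaaattc
BCL2L11, chr2:111120681-111120707, plus strand: agttactccgGTAAACAcgccagggac

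For the 3 members with the largest absolute change, the protein-coding genes of most similar pattern over the 6 libraries were sought by Pearson's r of log2 CPM among 12693 genes. They included STRADB and SLC25A13 for HRK (r of 0.9984 and 0.9979), SMYD4, PAEP and IFIT3 for BCL2A1 (0.9946 to 0.9961), and SERF1A, RBM19 and RAD54L for BIK (0.9925 to 0.9947). With 6 libraries in 3 groups, such values follow from the group means and describe likeness only.

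**Figure D4:**
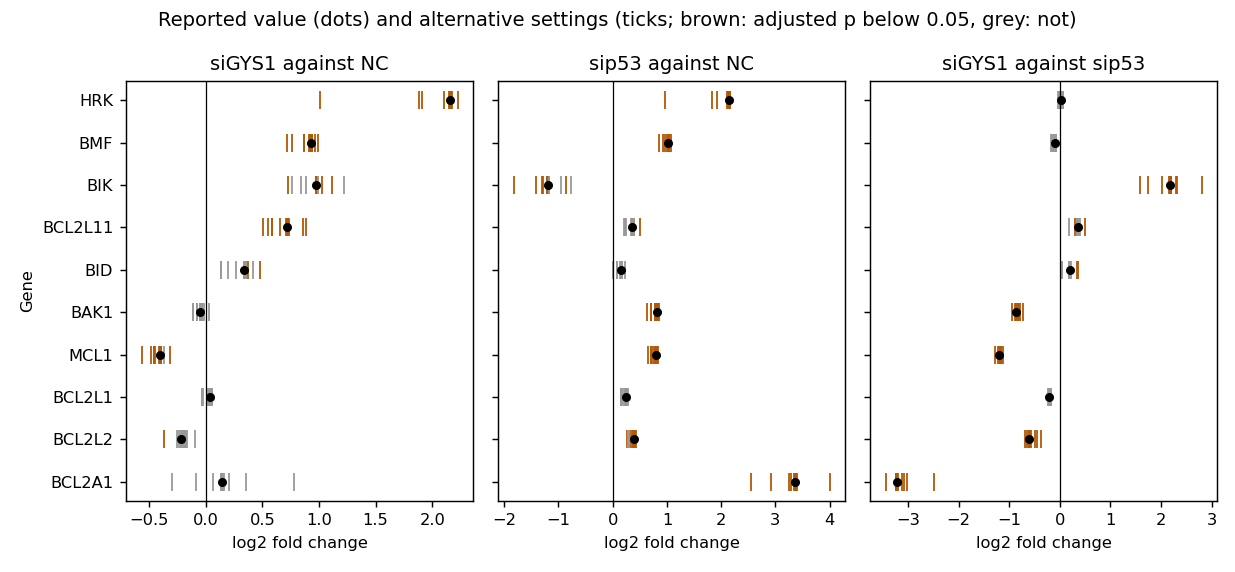
Log2 fold change of each gene (rows) in the 3 comparisons as reported (black dots) and under each alternative setting (ticks, brown where the adjusted p is below 0.05 and grey where it is not). With sip53 against NC every gene stays on 1 side of 0, BID only barely, while BCL2A1 with siGYS1 against NC scatters around 0.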

How the data were processed

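Gene-level RNA-seq values of 6 TOV21G libraries were used. Per the file headers, the authors deposited 4 values per gene and library: TPM, FPKM, read counts, and normalized read counts. Their group means were not used. The deposited read counts are expected counts, since 16.8% to 18.1% of values per library are not whole (tolerance 1e-09), and were rounded here. The deposited normalized counts, a signal scaled by 1 constant per library, were not tested. The submitters' processing notes list aligners and counters without roles and name the build mm10, although the identifiers are human. No source used here states strand use in counting, so reads of BCL2L11, BAK1, BMF, BCL2L1 and BCL2L2 cannot be told apart from those of antisense genes.

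The test was edgeR 4.0.16 under R 4.3.3 (filterByExpr, minimum count 10; TMM; group as sole term; all 6 libraries in 1 fit). The filter left 13235 genes. SE is the absolute log2 fold change over the square root of F, and intervals use 9.67 degrees of freedom. Alternatives used DESeq2 1.42.0 and limma 3.58.1 (log2 FPKM with pseudocounts of 1 and 0.1). The procedure was tested on simulated data with 200 changed genes in the siGYS1 group, independent libraries and no length trend. These data have far more called genes and show length trends, so the test does not cover those conditions. In the simulation, fold changes of changed genes came out without marked bias, and p-values of unchanged genes were uniform at 0.05. Where genes differed in dispersion, the share of false calls ran above the nominal one in every draw. Calls just under the threshold are thus less secure than their adjusted p says. The first criterion set for that test was not met and was replaced, with every draw kept.

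The members and gene lists were chosen with earlier results of these data known. Text names all members, and from each other list up to 3 changed genes of largest change per comparison against NC. BAX is named beyond this rule, since the class sums leave it out. Equal replicate numbers are not stated to pair libraries. The transcript check of the sip53 label and a few other genes that the rules would name are not reported here.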

Additional observations from a re-analysis of the deposited data

How the results depend on the processing

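Of the 30 member comparisons, 19 kept their direction where called and their side of the threshold under all alternatives run, among them HRK and BMF in all 3 comparisons, and MCL1 and BAK1 with sip53. The count of changed genes with siGYS1 (2602) was 1575 when only both compared groups were fitted and ranged from 926 to 4256 when 1 library was left out (926 when it was NC replicate 2, 1696 for NC replicate 1, 1550 and 1571 for the sip53 libraries, 4256 for siGYS1 replicate 2). The 5 members called ranged from 3 (without NC replicate 1) to 6. With sip53, 6605 genes ranged from 4271 (without sip53 replicate 1) to 7620 and the 9 members from 6 to 9. For siGYS1 over sip53, 5745 genes ranged from 3416 to 6336 (3416 and 3484 without a sip53 library) and the 6 members from 5 to 6. With replicate number as a block, 4662, 7890 and 7202 genes changed in the 3 comparisons and 6, 9 and 7 members. Differences between replicates 1 and 2 correlated across genes at 0.59 (siGYS1 and NC), 0.27 (siGYS1 and sip53) and 0.11 (sip53 and NC). The length trend (rho) of replicates 1 and 2 was 0.54 and -0.09 with siGYS1, 0.04 and -0.39 with NC, and -0.02 and -0.08 with sip53. Why the replicate differences correlate was not tested. The split of higher and lower calls, 1379 and 1223 with siGYS1, was 1310 and 2435 with length-corrected offsets, 619 and 1184 with limma on log2(FPKM + 1) and 1383 and 795 with DESeq2. With sip53 it was 3103 and 3502, against 2882 and 4873 with length correction, 2056 and 3716 with limma, and 2869 and 2672 with DESeq2; the cause was not tested. The class ratio without MCL1 was 1.087 with siGYS1, 0.975 with sip53 and 0.918 with NC, and without MCL1 and BID 0.604, 0.614 and 0.494, so sip53 lay above NC without MCL1, and above siGYS1 as well without both. With 1 library left out, the ratio over all members ran from 0.568 to 0.672 with siGYS1, 0.414 to 0.425 with sip53 and 0.436 to 0.478 with NC. BIK and BCL2A1 are limited by depth, with 9 and 7 reads in their lowest libraries.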
